A study of Homo sapiens with 7 samples.

Results

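The nuclear genes for subunits of the mitochondrial respiratory chain and ATP synthase were described in human embryonic stem cells. Genes were taken by symbol: NDUFA, NDUFB, NDUFC, NDUFS or NDUFV followed by digits, SDHA to SDHD, and all symbols beginning with UQCR, CYC1, COX4 to COX8 or ATP5, with pseudogenes left out. The gene names gave 87 subunit genes, and 80 of the 14294 genes measured were among them. Complex I was represented by 36 genes, complex II by 4, complex III by 9, complex IV by 13 and ATP synthase (complex V) by 18. NDUFA4 was counted in complex IV, where its protein resides, and ATP5IF1, an inhibitor of ATP synthase, and COX7A2L, a factor of supercomplex assembly, were kept because their symbols match. The readthrough gene ATP5MF-PTCD1, with at most 1 read in any library, was kept apart. COX4I2, COX6A2, COX7A1, COX7B2, COX8C, ATP5MGL and UQCRHL were not analysed here.

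Complex I oxidises NADH and complex II oxidises succinate, and both pass electrons through ubiquinone to complex III, then by cytochrome c to complex IV, which reduces oxygen. Complexes I, III and IV pump protons across the inner mitochondrial membrane, and ATP synthase lets them flow back to make ATP. Complexes I, III, IV and V combine nuclear-encoded with mitochondrially encoded subunits, whereas complex II is wholly nuclear-encoded. Pluripotent stem cells are known for relying strongly on glycolysis while keeping a working respiratory chain.

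Long-read sequencing of polyadenylated RNA was done on the HUES66 line, established embryonic stem cells of human origin, with piggyBac given as its description in the labels. The study asked what follows when Cas13d, an RNA-guided nuclease that cuts RNA, is aimed at single isoforms of RBFOX2, a splicing regulator. The 7 cultures comprised 1 control of WT genotype and 6 knockdowns, called G libraries here after their labels: G3 (RBFOX2 id 178147), G5 (178149), G11 (178136), G12 (178135), G13 (178145) and G14 (178146). Each culture, the control included, was given 1 µg/ml doxycycline and sampled at 24 h. The labels do not tell which isoform an id stands for, nor the guide sequences. Each group is 1 library, so no difference below has a replicate check, and all 6 comparisons use the same control. RNA integrity numbers lay between 8.7 and 9.7.

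The smallest library was the control, with 16801842 reads, and the largest G12, with 26678538. RBFOX2 itself stood, in percent of its control level, at 39.2 (G3), 90.3 (G5), 77.3 (G11), 82.5 (G12), 52.2 (G13) and 98.6 (G14). Of 8 pluripotency markers 7 were measured, with a summed level of 2027 TPM in the control against 1596 to 2004 TPM in the rest. POU5F1, the pluripotency factor OCT4, was at 915 TPM in the control, with 377 to 588 TPM elsewhere, and NANOG was also highest in the control. DPPA4, L1TD1 and TDGF1 were lowest in the control, DPPA4 with 745 TPM there and 766 to 1002 TPM elsewhere, while LIN28A and ZFP42 had the control inside the range. Summed levels of the measured markers of neuroectoderm (2 of 4 genes), mesoderm (3 of 4) and endoderm (2 of 5) did not exceed 0.298 TPM in any library, and those of trophoblast (2 of 4) did not exceed 2.41 TPM. Of 6 fibroblast markers 3 were measured, and their sum of 945 TPM in the control, against 825 to 937 TPM elsewhere, was mostly THY1, which stem cells also carry, with COL1A1 at 1.58 to 30.3 TPM. What these marker differences contribute to the subunit values was not tested, and fewer cells of a type cannot be told apart from less RNA per cell.

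Sequences are printed for 1 internal exon whose inclusion differed between libraries, and for 4 gene starts that carry the motifs discussed next. Exon 9 of ATP5F1C, the central gamma shaft of the ATP synthase motor, covers chr10:7806974-7807010 on the plus strand. FOX proteins, the family of RBFOX2, are known to promote its skipping in muscle. The sequence is that of GENCODE 29 on GRCh38, and the exon was picked once the shares were known.
ATP5F1C exon 9: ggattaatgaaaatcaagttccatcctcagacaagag

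Promoter windows, from 250 bases before to 50 bases after the gene start, were found in RefSeq (GRCh38.p14) for 66 of the 80 genes. Searched on both strands, the NRF1 motif occurred in 16 windows (24.2%), the ETS motif CCGGAAGT, bound by the GABP factor, in 12 (18.2%), and the YY1 motif AAGATGGCG in 9 (13.6%). Among 6521 windows of all genes compared, the shares were 15.6%, 12.48% and 6.03%, and among all 27305 windows 6.98%, 4.95% and 2.14%. These motifs are the textbook link between nuclear respiratory genes. A match is only a match of letters. Stretches of 120 bases are given for SDHA (chr5:218200-218319, plus strand) and UQCRFS1 (chr19:29213152-29213271, minus strand), above and below the control in all 6 G libraries, for SDHD (chr11:112086753-112086872, plus strand), which carries 2 kinds of motif, and for COX5B (chr2:97645942-97646061, plus strand). Capitals mark NRF1 motifs in SDHA and UQCRFS1, an NRF1 and then an ETS motif in SDHD, and an ETS motif in COX5B.
SDHA: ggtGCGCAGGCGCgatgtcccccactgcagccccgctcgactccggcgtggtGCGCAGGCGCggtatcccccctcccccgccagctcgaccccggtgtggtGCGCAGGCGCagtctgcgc
UQCRFS1: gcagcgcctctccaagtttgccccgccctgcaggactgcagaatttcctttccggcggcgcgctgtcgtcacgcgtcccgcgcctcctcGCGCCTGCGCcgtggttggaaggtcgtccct
SDHD: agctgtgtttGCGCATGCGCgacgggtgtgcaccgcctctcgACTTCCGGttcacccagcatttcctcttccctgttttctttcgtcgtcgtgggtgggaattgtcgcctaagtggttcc
COX5B: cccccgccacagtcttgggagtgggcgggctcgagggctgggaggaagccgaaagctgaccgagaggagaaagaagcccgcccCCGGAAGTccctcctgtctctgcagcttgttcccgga

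Most subunit genes had lower levels in the 6 G libraries than in the control, and complex IV stood lowest. Most of them are also short transcripts, and set against all genes of like length, as given further on, their median lay within 0.16 of 0 on the log2 scale in all 6 libraries. Levels are TPM, here reads scaled to the total of the library with no length term, so that 1 read stands for 1 cDNA molecule. Ratios are log2 of (TPM + 0.5) in a G library over that of the control. A ratio carries an exact Clopper-Pearson interval and a share a Wilson interval, each of 95% and for counting error only. A mean of at least 5 TPM was reached by 71 of the 80 genes and by 7877 of all 14294 genes, and these were compared.

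The number of the 71 genes at least 2-fold lower than in the control was 33 (G3), 42 (G5), 23 (G11), 14 (G12), 10 (G13) and 34 (G14). The percentage of all genes compared that were 2-fold lower was 5.14 (G3), 10.1 (G5), 10.4 (G11), 8.79 (G12), 14.6 (G13) and 18.9 (G14). No subunit gene was 2-fold higher in any library, and the percentage of all genes that were was 1.89 (G3), 0.533 (G5), 0.724 (G11), 0.546 (G12), 1.04 (G13) and 3.97 (G14). The median log2 ratio of the 71 genes was -0.96 (G3), -1.10 (G5), -0.80 (G11), -0.43 (G12), -0.42 (G13) and -0.94 (G14). That of all genes compared was 0.12 (G3), 0.14 (G5), -0.04 (G11), -0.16 (G12), -0.21 (G13) and -0.10 (G14). Counting intervals of the log2 ratios reached a median of 0.11 to 0.13 to either side.

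**Figure D1:**
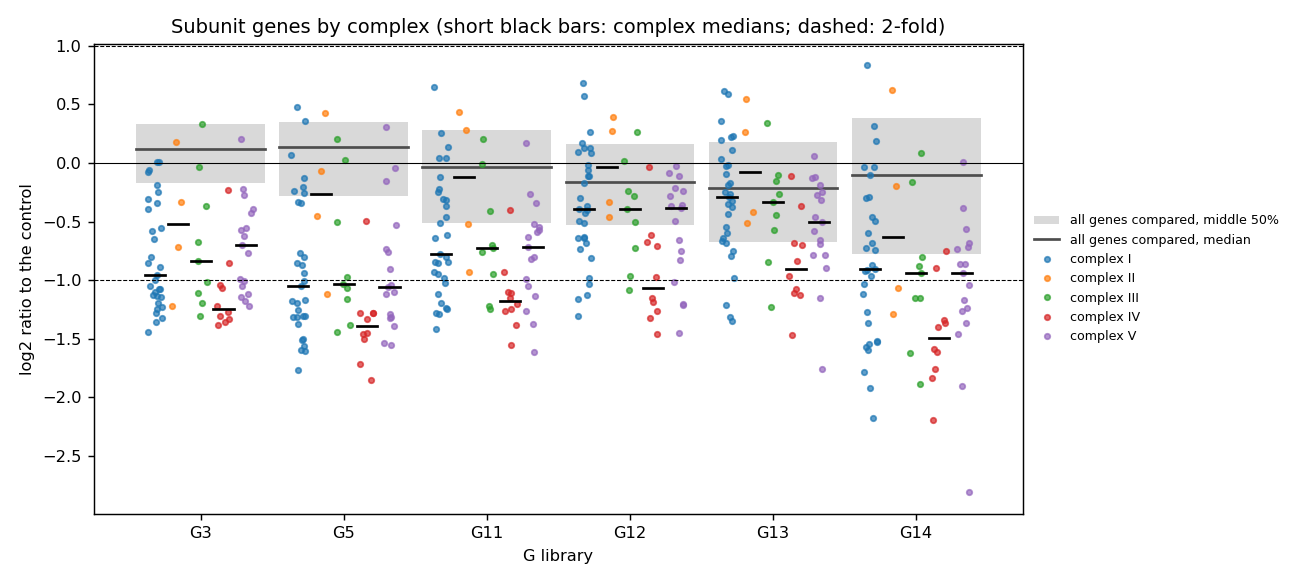
Log2 ratio of each of the 71 subunit genes to the control in each G library, 1 point per gene, coloured by complex, with short black bars at complex medians, grey boxes for the middle 50% of all 7877 genes compared and a grey line at their median. Complex IV has the lowest median in all 6 libraries, and complex II has the median nearest to 0.

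The control lay above all 6 G libraries for 53 of the 71 genes (20.5% of all genes compared) and below all 6 for 2, NDUFA5 and SDHA (21.1% of all genes compared). It lay inside their range for 16. After subtraction of a surface of length and GC content, fitted over all genes compared, the control was above all 6 in 25 genes and below all 6 in 13. The percentages of all genes given here are for levels without that subtraction, and those after it were not computed. By complex, for levels without subtraction, the control was above all 6 in 21 of 31 complex I genes, 2 of 4 complex II genes, 6 of 9 complex III genes, 10 of 10 complex IV genes and 14 of 17 ATP synthase genes. G14 held the lowest value of 29 genes (40.8%, against 21.2% of all genes compared) and G5 that of 23 (32.4%, against 5.26%). Summed over the 71 genes, the level was 16047 TPM in the control and in percent of that 75.7 (G3), 77.6 (G5), 83.1 (G11), 92.5 (G12), 93.8 (G13) and 72.3 (G14).

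The level differences moved with transcript length. The length of a gene here is the number of annotated exon bases within the listed ends of its isoforms, averaged by level. Those ends are uncertain, so lengths are approximate. The 71 subunit genes had a median of 958 nt (365 to 6094), against 2450 nt over the 7736 genes with a length, and complex IV was the shortest complex, at 724 nt. The 37 subunit genes under 1000 nt had median log2 ratios of -1.11 (G3), -1.31 (G5), -0.95 (G11), -0.66 (G12), -0.60 (G13) and -1.24 (G14). The 34 of 1000 nt or more had -0.38 (G3), -0.50 (G5), -0.44 (G11), -0.26 (G12), -0.22 (G13) and -0.75 (G14). Spearman's rho between length and log2 ratio over the 71 genes was 0.56 (G3), 0.58 (G5), 0.44 (G11), 0.31 (G12), 0.30 (G13) and 0.34 (G14). Over all 7736 genes it was 0.45 (G3), 0.51 (G5), 0.34 (G11), 0.15 (G12), 0.08 (G13) and 0.37 (G14). These correlations are across genes, which share their libraries and are not replicates.

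All genes were divided by length into 20 bins of 386 to 388, a setting added after the data were seen, and the median log2 ratio of the bin was subtracted from that of each gene. The 71 subunit genes then had a median of -0.16 (G3), -0.04 (G5), 0.02 (G11), -0.03 (G12), -0.01 (G13) and -0.01 (G14). The number at least 2-fold below genes of their length was 3 (G3), 6 (G5), 3 (G11), 1 (G12), 3 (G13) and 6 (G14). Of all 7736 genes the percentage was 1.25 (G3), 2.42 (G5), 5.11 (G11), 5.61 (G12), 10.1 (G13) and 10.4 (G14). Complex IV remained below 0, with -0.30 (G3), -0.19 (G5), -0.21 (G11), -0.57 (G12), -0.41 (G13) and -0.20 (G14), and complex I had -0.11 (G3), -0.02 (G5), 0.07 (G11), 0.05 (G12), 0.15 (G13) and 0.05 (G14). The genes with the lowest median over the 6 libraries were NDUFA4 (-1.40 (G3), -1.70 (G5), -1.26 (G11), -1.18 (G12), -0.77 (G13) and -1.74 (G14)), UQCRFS1 (-0.91 (G3), -1.42 (G5), -1.35 (G11), -0.86 (G12), -1.06 (G13) and -2.07 (G14)) and ATP5MC3 (-0.89 (G3), -1.34 (G5), -1.19 (G11), -0.82 (G12), -0.71 (G13) and -1.52 (G14)). The highest were NDUFA12 (0.17 (G3), 0.35 (G5), 0.89 (G11), 1.32 (G12), 1.22 (G13) and 1.495 (G14)) and NDUFA5 (-0.04 (G3), 0.55 (G5), 0.75 (G11), 0.72 (G12), 0.75 (G13) and 1.19 (G14)). These 5 were picked after their values were seen. What produced the relation with length was not tested.

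**Figure D2:**
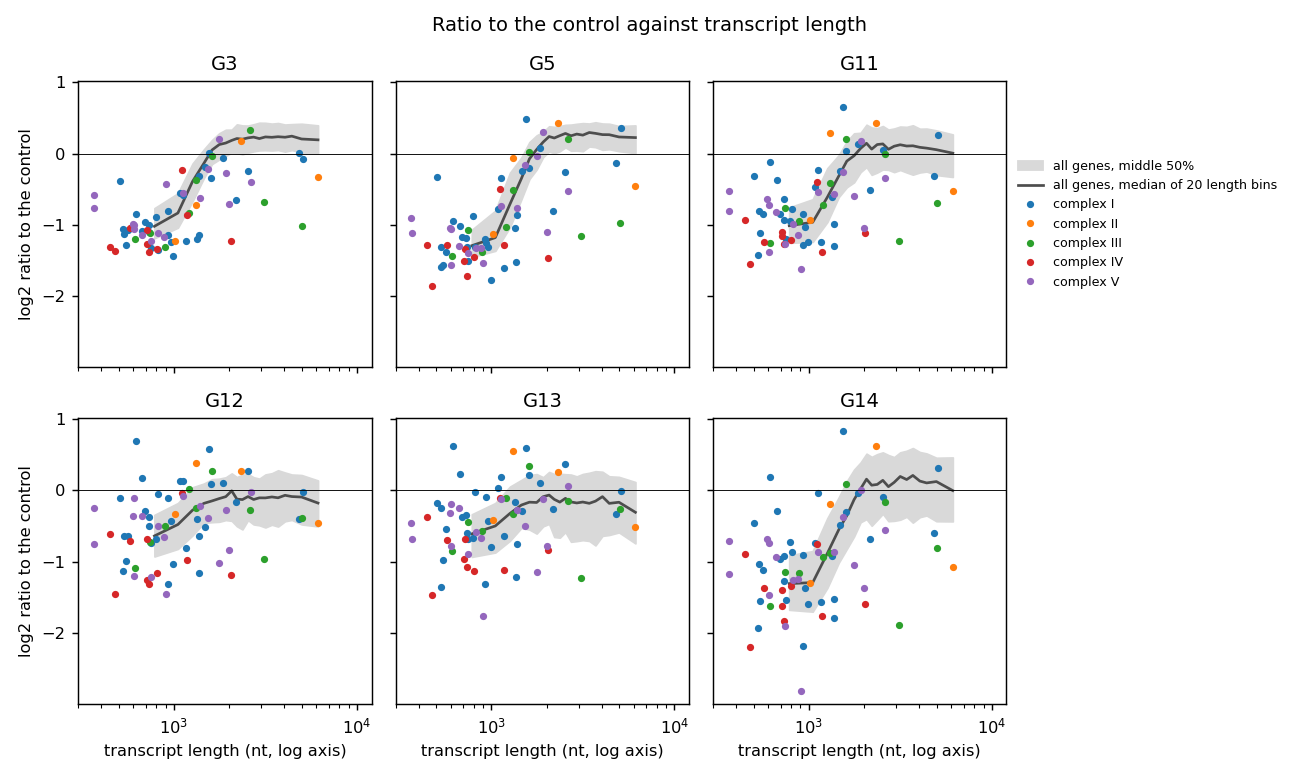
Log2 ratio to the control against transcript length (nt, log axis) in each G library, with 1 coloured point per subunit gene, a line for the median of all genes in 20 length bins and grey for their middle 50%. The line is lowest at the short end in every library, and the low values of most short subunit genes lie near it.

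**Figure D3:**
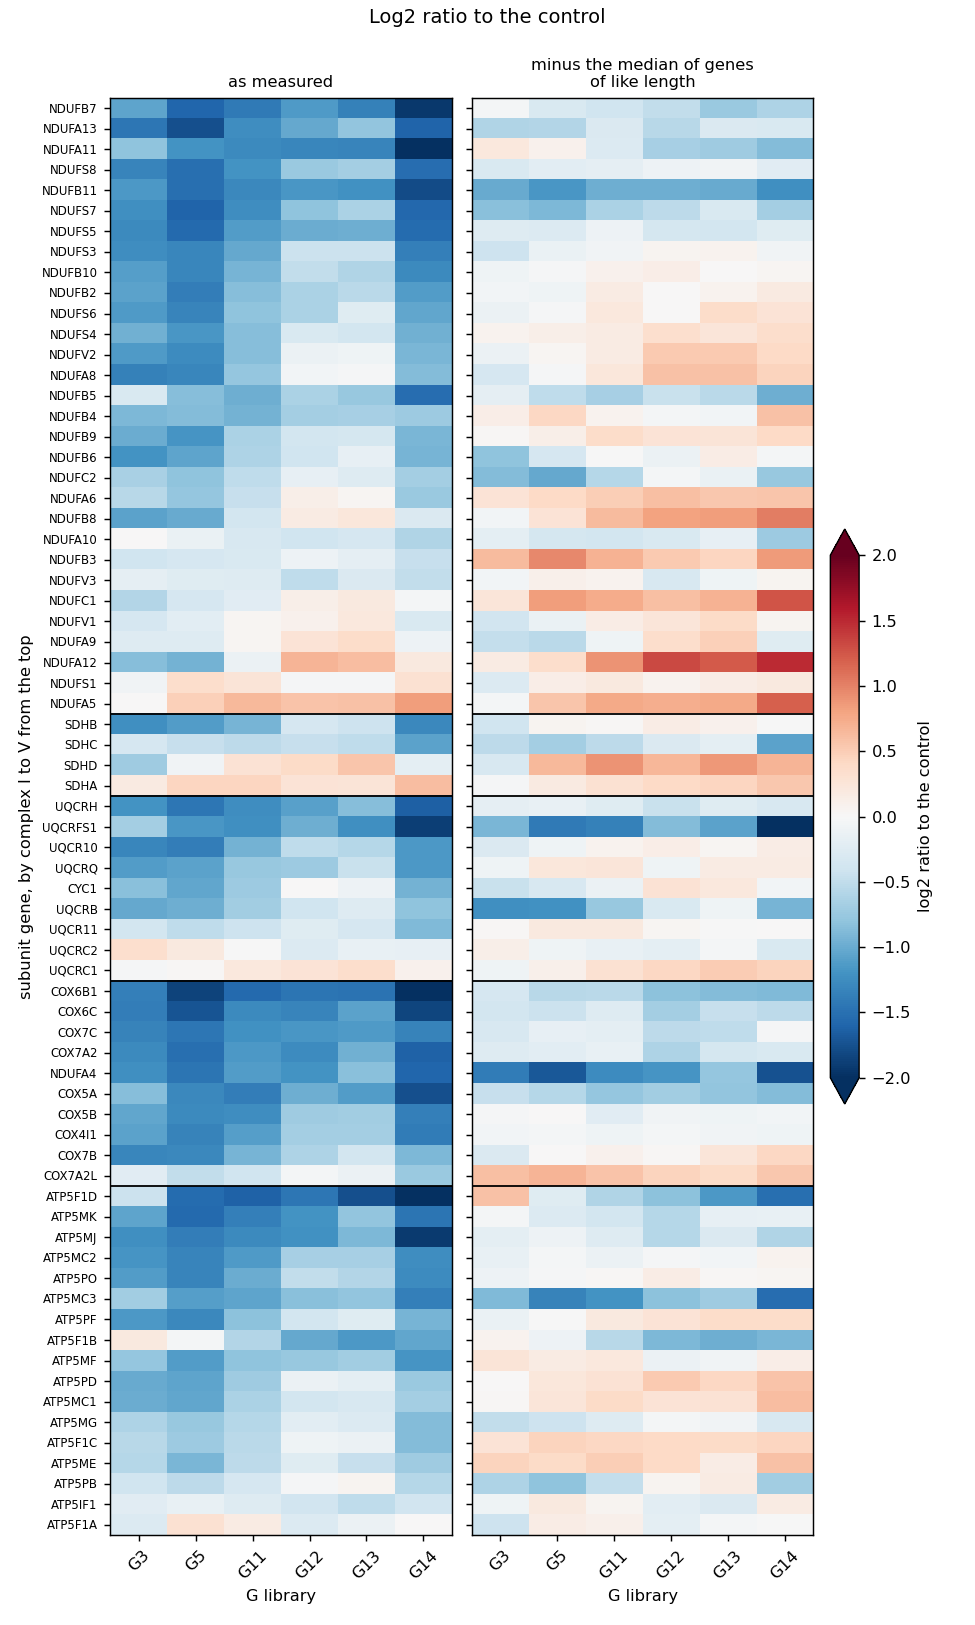
Log2 ratio to the control of 70 subunit genes (rows, by complex, lines between complexes) in the 6 G libraries (columns), as measured on the left and after subtraction of the median of genes of like length on the right; blue is below and red above the control, and colours saturate at 2. The left panel is mostly blue, whereas the right is mixed, with NDUFA4, UQCRFS1 and ATP5MC3 blue and NDUFA12 and NDUFA5 red.

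Complex I had a median log2 ratio of -0.96 (G3), -1.05 (G5), -0.78 (G11), -0.40 (G12), -0.29 (G13) and -0.91 (G14) over its 31 genes compared. The number at least 2-fold lower was 14 (G3), 17 (G5), 8 (G11), 4 (G12), 3 (G13) and 12 (G14). The most abundant was NDUFA5 (chr7:123536997-123558255), an accessory subunit of the matrix arm, at 669.6 TPM in the control against 675 (G3), 934 (G5), 1050.3 (G11), 997 (G12), 1005 (G13) and 1193 (G14). No G library was lower, and the gene was 101% of the control in G3 (95% interval 98.2 to 103) and 178% of the control in G14 (95% interval 174 to 182). NDUFA13, also known as GRIM-19, was lower in each G library, at 56.8 TPM in the control against 20.6 (G3), 16.4 (G5), 23.7 (G11), 27.6 (G12), 32.6 (G13) and 18.5 (G14). The small subunit NDUFB7 of the intermembrane side had 12.6 TPM in the control against 5.83 (G3), 3.85 (G5), 4.42 (G11), 5.51 (G12), 4.65 (G13) and 2.96 (G14). Its mean over the G libraries was 4.54 TPM, so it met the minimum of 5 TPM only through the control and had to be lower. The core subunits of the electron path differed among themselves. NDUFS1, which carries iron-sulphur clusters, had 115 TPM in the control against 109 to 147 TPM elsewhere. The control lay inside that range. NDUFV2, a core subunit of the NADH module, had 459.5 TPM in the control against 209 (G3), 193 (G5), 255 (G11), 425 (G12), 432 (G13) and 245 (G14). It was near the control in G12 and G13 and lower in the other 4. NDUFS7, which carries the last cluster before ubiquinone, had 79.4 TPM in the control against 25.8 to 50.9 TPM elsewhere. NDUFS8, beside it, had 60.8 TPM in the control against 20.7 to 37.6 TPM elsewhere. Both were highest in the control. NDUFA12, an accessory subunit, was the 1 subunit gene at least 1.5-fold higher in some libraries and 1.5-fold lower in others, with 53.3 TPM in the control against 29.4 (G3), 27.5 (G5), 49.2 (G11), 85.9 (G12), 81.8 (G13) and 60.8 (G14).

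Complex II had a median log2 ratio of -0.52 (G3), -0.26 (G5), -0.12 (G11), -0.03 (G12), -0.08 (G13) and -0.63 (G14) over its 4 genes. Its catalytic flavoprotein SDHA (chr5:218241-256700) was higher in all G libraries, at 236 TPM in the control against 267 (G3), 317 (G5), 319 (G11), 284 (G12), 282 (G13) and 362 (G14). The iron-sulphur subunit SDHB was lower in all, at 190.4 TPM in the control against 81.2 (G3), 87.3 (G5), 99.6 (G11), 151 (G12), 143 (G13) and 77.4 (G14). The membrane anchors differed: SDHC was at 465 TPM in the control against 369 (G3), 339 (G5), 324 (G11), 337 (G12), 326 (G13) and 221 (G14), and SDHD at 752 TPM in the control against 457 (G3), 717 (G5), 915 (G11), 984 (G12), 1100.4 (G13) and 656 (G14). SDHC was highest in the control, while SDHD had 3 libraries above it and 3 below. In percent, SDHA was 154% of the control in G14 (95% interval 148 to 159.8), where SDHB was 40.6% of the control in G14 (95% interval 38.3 to 43.2). The 2 proteins form the soluble head of the enzyme. After subtraction of the median of genes of like length, the log2 ratio in G14 was 0.54 for SDHA and -0.00045 for SDHB. Medians over the 6 libraries were then 0.35 for SDHA and 0.044 for SDHB. With the surface of length and GC content subtracted instead, the ratio in G14 was 0.84 for SDHA and -0.70 for SDHB.

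Complex III had a median log2 ratio of -0.83 (G3), -1.03 (G5), -0.73 (G11), -0.40 (G12), -0.34 (G13) and -0.94 (G14) over its 9 genes. The number at least 2-fold lower was 4 (G3), 5 (G5), 2 (G11), 1 (G12), 1 (G13) and 4 (G14). UQCRC1, a core scaffold subunit, was the most abundant, with 1279.6 TPM in the control against 1253 (G3), 1303 (G5), 1477 (G11), 1538 (G12), 1625 (G13) and 1357 (G14), and G3 alone lay below the control. CYC1, which carries the haem of cytochrome c1, was near the control in 2 libraries and lower in the rest, with 1227 TPM in the control against 688 (G3), 599.7 (G5), 741 (G11), 1239.5 (G12), 1139.9 (G13) and 640.0 (G14). It was 101% of the control in G12 (95% interval 99.3 to 103) and 48.9% of the control in G5 (95% interval 47.9 to 49.9). UQCRFS1, the Rieske iron-sulphur protein, was lower in all 6, with 234 TPM in the control against 146 (G3), 105 (G5), 99.8 (G11), 119 (G12), 99.6 (G13) and 63.1 (G14). The hinge protein UQCRH was also lower in all 6, with 36.2 TPM in the control against 15.6 (G3), 13.04 (G5), 14.98 (G11), 16.8 (G12), 19.9 (G13) and 11.4 (G14). UQCRC2, the other core subunit, had 193 TPM in the control against 159 to 243 TPM elsewhere, and the control lay inside that range.

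All 10 genes of complex IV were highest in the control. The median log2 ratio was -1.25 (G3), -1.39 (G5), -1.18 (G11), -1.07 (G12), -0.90 (G13) and -1.49 (G14). The number at least 2-fold lower was 8 (G3), 9 (G5), 8 (G11), 5 (G12), 4 (G13) and 8 (G14). COX6B1 (chr19:35648223-35658861), at the intermembrane face, had 15.6 TPM in the control against 5.77 (G3), 3.97 (G5), 4.99 (G11), 5.36 (G12), 5.31 (G13) and 3.01 (G14), which was 19.3% of the control in G14 (95% interval 14.4 to 25.5). It too passed the minimum only through the control, with a mean of 4.73 TPM over the G libraries, and no other subunit gene compared did besides NDUFB7. COX6C, a small membrane subunit, had 19.6 TPM in the control against 7.23 (G3), 5.62 (G5), 7.87 (G11), 7.57 (G12), 9.08 (G13) and 5.16 (G14). COX4I1, a subunit that regulates the enzyme, had 180.5 TPM in the control against 85.9 (G3), 71.5 (G5), 83.8 (G11), 113 (G12), 112 (G13) and 68.2 (G14). NDUFA4 had 92.4 TPM in the control against 30.4 to 51.5 TPM elsewhere. COX5A had 56.6 TPM in the control against 16.4 to 31.1 TPM elsewhere, and COX5B had 33.5 TPM in the control against 12.7 to 20.4 TPM elsewhere.

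Several subunits of complex IV have paralogues. COX7A2 had 30.8 TPM in the control against 12.4 (G3), 10.5 (G5), 13.6 (G11), 12.6 (G12), 15.5 (G13) and 9.69 (G14), and the control was more than any G library. COX7A2L, which joins complexes III and IV, was the most abundant gene counted in complex IV, with 768 TPM in the control against 653 (G3), 544 (G5), 582 (G11), 749 (G12), 709.6 (G13) and 457 (G14). COX6A1 and COX8A were under 5 TPM on average: COX6A1 had 2.68 TPM in the control against 0.728 to 3.51 TPM elsewhere, and COX8A had 2.50 TPM in the control against 1.38 to 3.14 TPM elsewhere. COX6B2, a paralogue best known from testis, had 0 to 3 reads in each library, at or under the floor of 3 reads used here. The other genes under 5 TPM on average were NDUFA1 (4.17 TPM in the control against 1.01 to 2.07 TPM elsewhere), NDUFA2 (10.1 TPM in the control against 2.71 to 4.71 TPM elsewhere), NDUFA3 (5.18 TPM in the control against 1.34 to 4.09 TPM elsewhere), NDUFA7 (10.1 TPM in the control against 2.91 to 4.34 TPM elsewhere), NDUFB1 (3.93 TPM in the control against 1.18 to 2.52 TPM elsewhere) and ATP5F1E (5.89 TPM in the control against 2.29 to 4.37 TPM elsewhere). In these 6 the control was above every G library.

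ATP synthase had a median log2 ratio of -0.70 (G3), -1.06 (G5), -0.72 (G11), -0.39 (G12), -0.50 (G13) and -0.94 (G14) over its 17 genes compared. The number at least 2-fold lower was 6 (G3), 10 (G5), 5 (G11), 4 (G12), 2 (G13) and 8 (G14). ATP5F1A, the alpha subunit of the catalytic head, was the most abundant, with 1191 TPM in the control against 988 (G3), 1473 (G5), 1339.6 (G11), 981 (G12), 1094 (G13) and 1198 (G14), and the control lay within the G libraries. ATP5F1B, the beta subunit that forms the same ring, had 1029 TPM in the control against 1184 (G3), 1001 (G5), 684 (G11), 507 (G12), 464 (G13) and 498 (G14). In G12, G13 and G14 beta was at 45.1 to 49.3% of its control level. ATP5F1D (chr19:1241746-1244826), the delta subunit of the central stalk, was lower in all 6 libraries, with 35.5 TPM in the control against 26.3 (G3), 11.9 (G5), 11.3 (G11), 12.7 (G12), 10.2 (G13) and 4.63 (G14), and at 13.03% of the control in G14 (95% interval 10.4 to 16.2) it had the lowest ratio among the 71 genes. ATP5MK, a small subunit of the membrane part linked to dimers, had 20.1 TPM in the control against 9.41 (G3), 6.48 (G5), 7.44 (G11), 8.43 (G12), 11.5 (G13) and 6.97 (G14).

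ATP5MC1, ATP5MC2 and ATP5MC3 encode an identical mature c subunit of the rotor ring. ATP5MC1 had 34.3 TPM in the control against 16.4 to 27.5 TPM elsewhere. ATP5MC2 had 54.6 TPM in the control against 21.5 to 34.4 TPM elsewhere. ATP5MC3 had 88.1 TPM in the control against 33.9 to 54.0 TPM elsewhere. All 3 were highest in the control. The inhibitor ATP5IF1 had 61.2 TPM in the control against 52.5 (G3), 54.9 (G5), 51.0 (G11), 46.6 (G12), 43.0 (G13) and 46.9 (G14), all G libraries below the control. ATP5PB, the stator stalk subunit b, had 757 TPM in the control against 513 to 788 TPM elsewhere, with only G13 above the control, while ATP5PO, at the top of the stalk, had 395 TPM in the control against 158 to 279 TPM elsewhere.

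**Figure D4:**
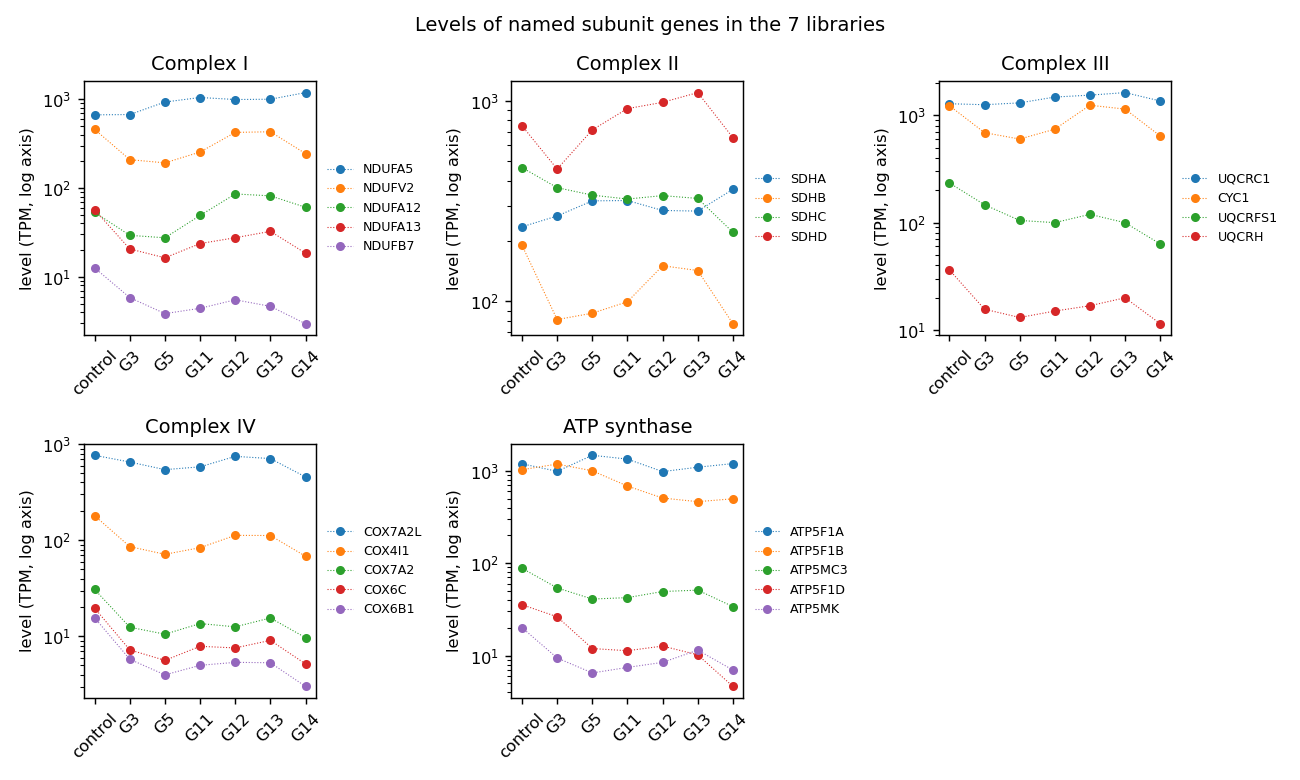
Level (TPM, log axis) of 23 subunit genes in the control and the 6 G libraries, 1 panel per complex and 1 point per library; dotted lines only join points of a gene. SDHA is lowest in the control, and COX6B1, COX6C, COX7A2, UQCRH and UQCRFS1 are highest there.

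Isoform usage of the subunit genes was next compared with the control. Shares were taken in the 65 subunit genes, of 6944 genes in all, with at least 100 reads in every library and 2 or more isoforms. The leading isoform of a subunit gene held a median of 91.4% of its reads in the control, against 77.3% over all such genes. The number of the 65 genes with that share at least 10 percentage points from the control was 7 (G3), 10 (G5), 5 (G11), 6 (G12), 6 (G13) and 11 (G14). In percent this was 10.8 (G3), 15.4 (G5), 7.69 (G11), 9.23 (G12), 9.23 (G13) and 16.9 (G14). Over all genes the percentages were 8.44 (G3), 8.91 (G5), 8.99 (G11), 9.17 (G12), 11.4 (G13) and 12.4 (G14). At 10 points the subunit genes were above that background in G3, G5 and G14 and near or below it in G11, G12 and G13. At 5 points they were below it in G3 (26.2% against 27.3%) and G14 (29.2% against 32.7%) and near it in G5 (29.2% against 27.5%). With at least 500 reads in every library they were near it in G5 (4.88% against 4.26%) and G14 (7.32% against 7.19%). They were above it in G3 (4.88% against 3.28%) and G12 (7.32% against 4.01%). These percentages rest on only 2 or 3 of 41 genes. With isoforms under a mean of 1 TPM left out they were above it in all 6 libraries, from 9.43% against 7.17% in G11 to 24.5% against 6.10% in G5. The excess thus depended on these settings. The usage distance, which is 0 for equal isoform shares and 1 for no isoform in common, had a median of 0.023 to 0.035 for the subunit genes and 0.057 to 0.070 for all genes. The 8 subunit genes with the largest distances were ATP5MF, ATP5IF1, NDUFV3, ATP5MK, COX5B, NDUFC1, ATP5MC3 and COX7C.

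In 12 genes, 2 annotated isoforms differed by an internal exon or a retained intron. They were ATP5F1C and those with 2 reference isoforms of at least 10% of reads. The form with the extra stretch had a larger share than in the control in all 6 G libraries in 6 of the 12 genes, in 5 of 6 in 5 genes, and in 3 in 1 gene, NDUFS4. These counts take no account of counting intervals and share 1 control, and the same count was not made over all genes. In NDUFB10 and ATP5MJ, both counted at 5 of 6, the control interval overlapped that of every G library. Of the 2 isoforms of NDUFV3, an accessory subunit with a long and a short form, the one that holds the exon of 1095 nt at chr21:42903182-42904276 had 68.9% in the control against 81.1 (G3), 85.8 (G5), 85.1 (G11), 79.8 (G12), 76.6 (G13) and 87.1 (G14). The Wilson 95% interval of the control, 65.5 to 72.0%, did not reach that of any G library. For ATP5F1C, reads without exon 9 made up 1.38% in the control against 0.990 (G3), 0.590 (G5), 0.558 (G11), 0.858 (G12), 0.587 (G13) and 0.842 (G14), of 10694 to 23416 reads. The control interval of 1.21 to 1.58% lay above those of all 6 G libraries for the exon shown above. Among the G libraries this percentage was highest in G3, where RBFOX2 stood at 39.2% of its control level. In G13, with RBFOX2 at 52.2%, it was 0.587%. In the other G libraries RBFOX2 stood, in percent, at 77.3 (G11), 82.5 (G12), 90.3 (G5) and 98.6 (G14). A link between exon 9 and RBFOX2 was not tested.

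The form of ATP5MK that holds the exon of 287 nt at chr10:103395746-103396032 had 74.7% in the control against 76.6 (G3), 87.0 (G5), 83.2 (G11), 90.2 (G12), 87.1 (G13) and 90.9 (G14) of 110 to 253 reads, and its control interval of 69.0 to 79.7% overlapped those of G3 and G11. In ATP5IF1, the isoform that keeps the intron of 1384 nt at chr1:28236453-28237836 had 63.9% in the control against 80.0 (G3), 84.5 (G5), 79.4 (G11), 77.1 (G12), 72.6 (G13) and 82.9 (G14), and no interval of a G library reached that of the control. In COX7C, a small subunit of complex IV, the form that keeps 1171 nt at chr5:86619497-86620667 had 9.14% in the control against 20.4 (G3), 29.95 (G5), 25.2 (G11), 13.9 (G12), 12.8 (G13) and 25.6 (G14), and the control interval of 6.64 to 12.4% overlapped those of G12 and G13. In NDUFA11, a membrane subunit of complex I, the form that keeps 1598 nt at chr19:5894855-5896452 had 14.4% in the control against 37.5 (G3), 41.8 (G5), 22.9 (G11), 23.6 (G12), 10.3 (G13) and 25.4 (G14). Its control interval of 11.4 to 18.0% overlapped those of G11 and G13.

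ATP5MC3 differed between libraries in another order. Its isoform that keeps the intron of 189 nt at chr2:175181467-175181655 had 25.7% in the control against 20.3 (G3), 26.3 (G5), 33.6 (G11), 45.2 (G12), 46.7 (G13) and 47.5 (G14), so that G12, G13 and G14 stood highest and G3 was below the control. COX5B had a leading isoform with 80.1% of reads in the control and 65.0 to 72.0% in the G libraries, and that of NDUFC1 had 56.1% in the control and 62.9 to 74.1% in the G libraries. ATP5MF, a membrane subunit of ATP synthase, had a leading isoform with 43.5% in the control and 25.1 to 35.5% in the G libraries. Over whole annotations, the form with the added exon or intron was the longer isoform in 9 of the 12 genes. It was the shorter in 3, ATP5MC3, NDUFB5 and NDUFV3 (1575 nt against 4676 nt in NDUFV3). In these 3 the annotated ends of the 2 isoforms differ, whereas their listed ends are the same or nearly so. Annotated exon bases within the listed ends were 842 nt against 2596 nt in ATP5MC3 and 1058 nt against 4045 nt in NDUFB5. In both, the form with the added stretch is annotated to stop short of its listed end. These counts therefore cannot tell which measured form was the longer. In NDUFV3 the form with the exon was the longer within the listed ends, with 1575 nt against 1048 nt. The part of length in the shares was not tested.

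**Figure D5:**
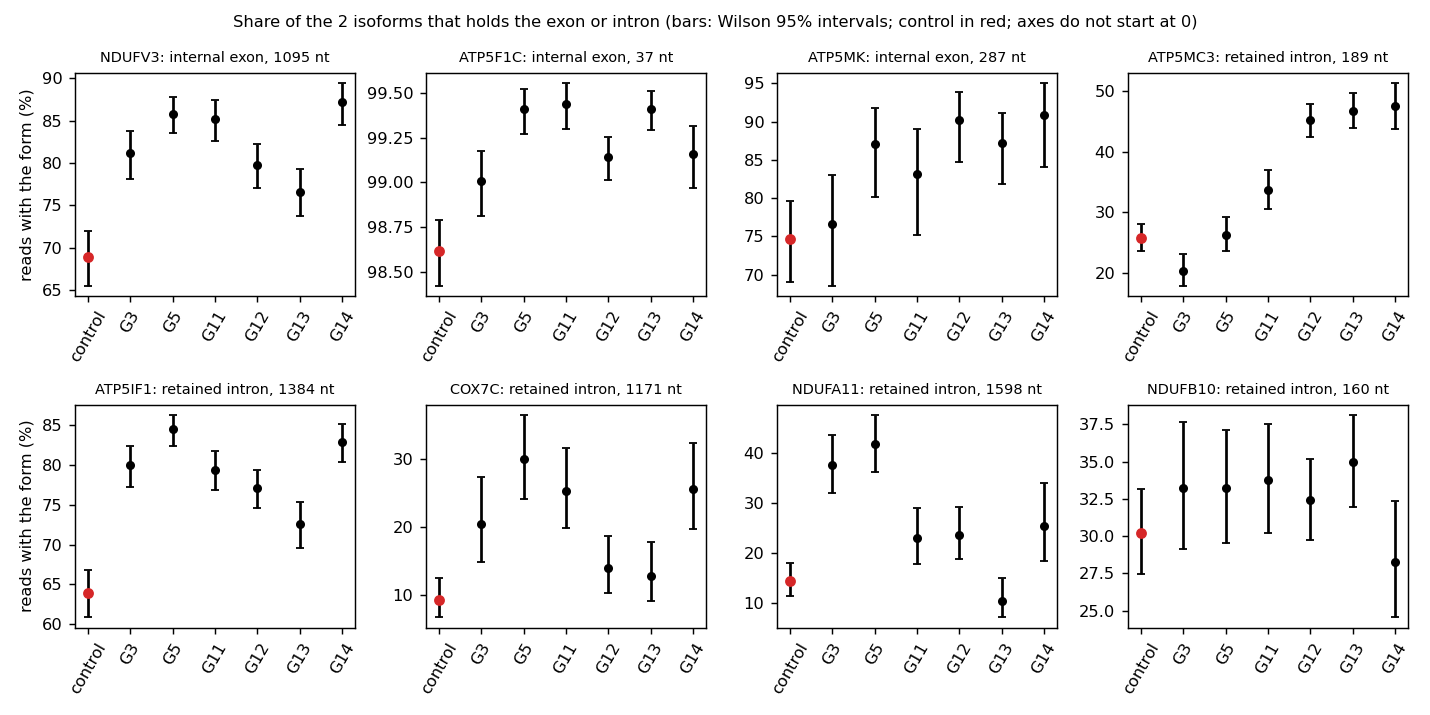
Share of reads (%) of the form that holds the named exon or intron, among the reads of the 2 isoforms, for 8 subunit genes in the 7 libraries; bars are Wilson 95% intervals, the control is red, and axes do not start at 0. The control is the lowest point for NDUFV3, ATP5F1C, ATP5MK, ATP5IF1 and COX7C.

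Of 52 assembly factors, which build the complexes but are not part of them, 45 were compared, and their median log2 ratios were -0.33 (G3), -0.54 (G5), -0.44 (G11), -0.19 (G12), -0.21 (G13) and -0.61 (G14). The number at least 2-fold lower was 6 (G3), 10 (G5), 5 (G11), 2 (G12), 4 (G13) and 16 (G14), and 1 was higher, in G14. In percent, those lower were 13.3 (G3), 22.2 (G5), 11.1 (G11), 4.44 (G12), 8.89 (G13) and 35.6 (G14). Over all genes compared it was 5.14 (G3), 10.1 (G5), 10.4 (G11), 8.79 (G12), 14.6 (G13) and 18.9 (G14). The median length of the 45 was 1713 nt, against 2450 nt over all genes with a length. ACAD9, an assembly factor of complex I, had 81.5 TPM in the control against 86.2 (G3), 114 (G5), 115 (G11), 115 (G12), 114 (G13) and 155 (G14), lowest in the control. COX16, which helps to build complex IV, had 125 TPM in the control against 69.4 (G3), 67.1 (G5), 79.9 (G11), 96.4 (G12), 98.1 (G13) and 72.7 (G14), highest in the control. NDUFAB1, the acyl carrier protein that also sits in complex I, had 73.4 TPM in the control against 33.7 (G3), 33.1 (G5), 44.6 (G11), 54.8 (G12), 53.0 (G13) and 34.4 (G14). Cytochrome c, CYCS, had 1099 TPM in the control against 924 (G3), 1041 (G5), 1134 (G11), 1079 (G12), 1160.2 (G13) and 902 (G14), with the control inside the range.

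The 13 enzymes of the citric acid cycle, whose lengths have a median of 2351 nt, had median log2 ratios of 0.13 (G3), 0.31 (G5), 0.24 (G11), 0.04 (G12), 0.08 (G13) and 0.10 (G14). The number 2-fold lower was 1 in G13 and 0 in the rest, and the number 2-fold higher was 1 in G3, 1 in G14 and 0 in the rest. Of all genes compared, 14.6% were 2-fold lower in G13, and 1.89% (G3) and 3.97% (G14) were 2-fold higher. Of 10 regulators of respiratory gene transcription 6 were compared, with median log2 ratios of 0.28 (G3), 0.29 (G5), 0.09 (G11), -0.13 (G12), -0.13 (G13) and -0.08 (G14). None was 2-fold higher in any library, and the number 2-fold lower was 1 in G12 and G13, 2 in G14 and 0 in the rest. PPRC1, a coactivator related to PGC-1, had 44.3 TPM in the control against 57.9 (G3), 53.98 (G5), 24.9 (G11), 17.5 (G12), 4.43 (G13) and 11.6 (G14), above the control in G3 and G5 and below it in the others. TFAM, which packages mitochondrial DNA and is a factor in its transcription, had 61.9 TPM in the control against 114 (G3), 110.0 (G5), 95.6 (G11), 78.3 (G12), 94.98 (G13) and 109.7 (G14), lowest in the control. GABPA, the DNA-binding subunit of GABP, had 26.9 TPM in the control against 29.1 (G3), 31.4 (G5), 25.7 (G11), 24.9 (G12), 25.1 (G13) and 26.4 (G14). YY1 had 9.76 TPM in the control against 16.4 (G3), 9.82 (G5), 9.55 (G11), 5.92 (G12), 5.18 (G13) and 4.58 (G14). The 13 subunits encoded in mitochondrial DNA were not analysed here, since the 89 isoforms placed on that chromosome carry no gene ID and held 134 reads in the control and 5 to 26 in a G library.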

How the data were processed

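PacBio long reads of polyadenylated RNA were measured in 7 libraries, 1 per group. Per the labels' protocols, cDNA molecules were joined into 8-fold arrays, sequenced on Revio and split again in software. Per the file headers, the deposited values are a read count of each isoform and a TPM value; the authors' TPM is the count divided by the library total, with no length term, and depth was recovered from that ratio. Alignment used minimap2 2.17 and the build GRCh38, per the submitters' processing notes; the isoform assigner and the annotation are not given in the sources used here, nor whether reads of processed pseudogenes were kept apart from those of their parent genes. Empty cells were taken as 0. Each listed isoform has at least 1 read in the control, so the 98.1 to 98.6% of G library reads held by listed isoforms leave out forms seen in G libraries alone.

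Counts of all isoforms with the same Ensembl stem were added to gene totals for 14294 genes, scaled to library totals and compared as log2 ratios with a pseudocount of 0.5 TPM. Genes with a mean of at least 5 TPM entered. A gene was called at 2-fold, a leading isoform share at 10 percentage points. There was 1 library per group, so no p-value was computed. Exon coordinates and sequences came from GENCODE 29 (GRCh38). Members with values were named by a rule: in each complex the most abundant, the 2 with the largest median difference downward and the 1 with the largest upward, the 4 SDH genes, UQCRFS1, CYC1, ATP5IF1, paralogues, any gene 2-fold higher in 1 G library and 2-fold lower in another (there was none), and the 8 with the largest isoform usage distance. The members and gene lists were chosen with earlier results of these data known, and further genes were named to illustrate roles after their values were seen. Python 3.11.15, pandas 2.3.3, numpy 2.4.6, scipy 1.17.1 and matplotlib 3.10.9 were used, and the scripts were tested on simulated data. Alternatives covered pseudocount, level filter, scaling, isoform set, thresholds, reference library, length and GC content. A few results on single genes and sequences are not reported here.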

Additional observations from a re-analysis of the deposited data

Results flagged for a closer look

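NDUFA12, an accessory subunit of complex I, lay on opposite sides of the control in different G libraries. Its level was 53.3 TPM in the control, 29.4 and 27.5 TPM in G3 and G5, and 85.9 and 81.8 TPM in G12 and G13. The log2 ratio to the control ran from -0.94 in G5 to 0.68 in G12, a span of 1.62. After subtraction of the median of genes of like length, NDUFA12 was positive in every G library, from 0.17 in G3 to 1.495 in G14, and no longer lay on opposite sides. It drew attention as the subunit gene that was at least 1.5-fold lower in some G libraries and 1.5-fold higher in others, a threshold set after the data were seen; at 2-fold no gene met it. The difference between these libraries was not tested, since each group has 1 library.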

How the results depend on the processing

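No paired analysis was possible because each group has 1 library. A pseudocount of 1 TPM, a mean of at least 1 TPM and the use of reference isoforms alone left every count of subunit genes 2-fold from the control within 1.5 times and every median within the counting interval; of 28 single genes, 5 moved further than that with reference isoforms alone and none with the other 2 settings. A mean of at least 20 TPM, which left 51 genes, gave 19 (G3), 25 (G5), 10 (G11), 3 (G12), 3 (G13) and 18 (G14) genes 2-fold from the control and medians of -0.72 (G3), -0.61 (G11) and -0.27 (G13), with the control outside the range of the G libraries in 35. A 1.5-fold threshold gave 46 (G11), 31 (G12), 28 (G13) and 56 (G14) genes. Rescaling by the median of ratios used log2 factors over the control of -0.14 (G12), -0.16 (G13) and -0.11 (G14), gave 6 genes in G13 and medians of -0.29 (G12) and -0.26 (G13), and left the control above all 6 G libraries in 48 genes and below in 1, against 25 and 13 after subtraction of the surface described next. Subtraction of a surface of transcript length and GC content gave 4 (G3), 7 (G5), 8 (G11), 3 (G12), 6 (G13) and 14 (G14) genes, of which 2, 3, 4, 1, 3 and 7 were higher and 2, 4, 4, 2, 3 and 7 lower, and medians of -0.16 (G3), -0.069 (G5), -0.094 (G11), -0.13 (G12), -0.14 (G13) and -0.11 (G14). Of 28 named genes, 7 turned from a negative to a positive median: ATP5MF (1.28), NDUFB7 (0.45), ATP5MC1 (0.45), NDUFC1 (0.21), COX5B (0.21), CYC1 (0.054) and COX6B1 (0.0040). Subtraction of the medians of length bins, added after the data were seen, gave 3 (G3), 6 (G5), 3 (G11), 2 (G12), 4 (G13) and 10 (G14) genes, all lower except 1 in G12, 1 in G13 and 4 in G14, and medians of -0.16 (G3), -0.041 (G5), 0.021 (G11), -0.033 (G12), -0.011 (G13) and -0.013 (G14), of which that of G11 reversed. Here 6 named genes turned positive: NDUFC1 (0.71), COX7A2L (0.55), ATP5MC1 (0.29), ATP5MF (0.15), SDHB (0.044) and NDUFV3 (0.0029). ATP5F1A turned positive under rescaling (0.080) and NDUFC1 with reference isoforms alone (0.082). With the median of the other 6 libraries as reference the counts were 2 (G3), 1 (G5), 0 (G11), 0 (G12), 0 (G13) and 1 (G14), those in G3 upward, and the medians -0.20 (G3), -0.35 (G5), -0.088 (G11), 0.26 (G12), 0.34 (G13) and -0.41 (G14). At 5 percentage points the leading isoform share was away from the control in 17 (G3), 19 (G5), 15 (G11), 17 (G12), 16 (G13) and 19 (G14) of 65 genes, or 23.1 to 29.2% against 27.3 to 32.7% of all genes, and with 500 reads required in every library, which left 41 genes, in 2 (G3), 2 (G5), 2 (G11), 3 (G12), 2 (G13) and 3 (G14), or 4.88 to 7.32% against 3.28 to 7.19% of all genes. Leaving out 1 G library in turn, the median over the libraries ran from -0.91 to -0.77. Depth limits genes of low level, such as NDUFB7 with 62 to 212 reads.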
